A study of Caenorhabditis elegans with 2 samples.

Results

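The mitochondrial ribosomal protein genes of Caenorhabditis elegans were taken as all protein-coding genes of the Ensembl WBcel235 annotation whose symbol starts with mrpl- (large subunit) or mrps- (small subunit). This gave 70 of 19973 protein-coding genes, 41 for the large and 29 for the small subunit, and they were set beside the other 19903. Binding of PES-1, a forkhead transcription factor, was measured by chromatin immunoprecipitation followed by sequencing (ChIP-seq) in whole early embryos, labelled as aged 1 hour and obtained by egg bleaching. The samples form 1 group of 2 biological replicates of strain RW12239, in which CRISPR placed a TY1, EGFP and 3xFLAG tag on pes-1 at its own locus on chromosome IV, and an antibody against GFP recovered the tagged protein. Every sample carried the tag, and no untagged embryos were analysed here, so the comparison is between genes and not between conditions.

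The mitochondrial ribosome translates the few proteins encoded by the mitochondrial genome, which are subunits of the respiratory chain and ATP synthase. Its RNAs come from the mitochondrial genome, but all of its proteins are encoded in the nucleus, made in the cytoplasm and imported. Some members have bacterial counterparts, and others are particular to mitochondria. In C. elegans, loss of such proteins in larvae is known to activate the mitochondrial unfolded protein response.

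A gene was said to have a promoter peak when the summit of a peak lay from 1000 bp upstream to 200 bp downstream of a transcript 5′ end. The conservative list holds peaks that passed an irreproducible discovery rate of 0.01 between the replicates (IDR, an estimate of how many listed peaks a repeat would not find again). The bases around summits are shown for 4 members of that list, because by their best peaks they include its strongest member, mrps-28, and its weakest, mrps-23. Each window holds 101 bases of ce11 centred on the summit, read on the strand of the member from the RefSeq copy of the assembly. They are chrV:19643191-19643291 (plus strand) for mrps-28, chrV:1821410-1821510 (plus) for mrpl-39, chrIII:10707195-10707295 (plus) for mrpl-12 and chrIII:9523750-9523850 (minus) for mrps-23. Capitals mark GGTTCGA, read from the other strand, in mrps-28, GTGTTG in mrpl-39, and CTTGCGC, read from the other strand, followed by TTGCGCAA in mrpl-12; mrps-23 held none of the words searched.
mrps-28: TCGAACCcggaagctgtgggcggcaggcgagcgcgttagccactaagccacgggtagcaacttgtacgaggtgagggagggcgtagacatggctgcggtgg
mrpl-39: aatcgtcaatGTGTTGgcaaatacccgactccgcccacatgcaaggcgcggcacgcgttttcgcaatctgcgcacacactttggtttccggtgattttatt
mrpl-12: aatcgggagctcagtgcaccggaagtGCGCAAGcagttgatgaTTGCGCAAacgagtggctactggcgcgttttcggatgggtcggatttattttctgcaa
mrps-23: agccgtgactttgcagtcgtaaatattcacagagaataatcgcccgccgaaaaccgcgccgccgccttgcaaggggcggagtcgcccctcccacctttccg

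Of the 70 genes, 8 (11.4%, 95% Wilson interval 5.91 to 21.0%) had a conservative promoter peak, against 808 of the 19903 other genes (4.06%, 3.79 to 4.34%). Over all protein-coding genes the share was 4.09%. The large subunit contributed 5 of 41 genes (12.2%, 5.32 to 25.5%), mrpl-12, mrpl-15, mrpl-23, mrpl-39 and mrpl-45. The small subunit contributed 3 of 29 (10.3%, 3.58 to 26.4%), mrps-23, mrps-28 and mrps-35, so the subunits overlapped in their intervals. These intervals cover the counting of genes and not the sampling of reads, and no test over genes was made. The count fell to 5 (7.14%, 3.09 to 15.7%), against 2.95% of others (2.73 to 3.20%), when each summit went only to the gene with the nearest 5′ end. With a window of 500 bp upstream to 100 bp downstream it was 4 (5.71%, 2.24 to 13.8%), against 2.97% of others (2.75 to 3.22%). It was also 5 in replicate 1's own list, described next, and in all 3 cases the intervals of members and others overlapped.

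The share was above that of other genes in each of the other lists as well. In the optimal list, which is derived from both replicates, 11 members (15.7%, 9.01 to 26.0%) had a promoter peak, against 942 other genes (4.73%) and 4.77% of all genes. Replicate 1's own list held 5 members (7.14%, 3.09 to 15.7%), against 613 other genes (3.08%, 2.85 to 3.33%) and 3.09% of all genes. Replicate 2's own list held 6 members (8.57%, 3.99 to 17.5%), against 678 other genes (3.41%, 3.16 to 3.67%) and 3.42% of all genes. The interval of the members overlapped that of the other genes in replicate 1's list and lay above it in replicate 2's list.

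The full ranked list, with 74874 peaks down to very weak ones, placed a summit in the promoter window of 47 members (67.1%, 55.5 to 77.0%). Among other genes it did so for 8491 (42.7%, 42.0 to 43.4%), and the share of all genes was 42.7%. Among the 5000 strongest ranked peaks, 16 members (22.9%, 14.6 to 34.0%) had one, against 1901 other genes (9.55%) and 9.6% of all genes. The median rank of a member's strongest promoter peak was 11425 (quartiles 2326.5 and 30704, n = 47), with a 95% interval from order statistics of 5455 to 19926. The median rank of other genes was 16084 (quartiles 5865 and 31935.5, n = 8491), which lay inside that interval. Genes without any ranked promoter peak are left out of these medians, and with them placed last the members' median was 29123, while most other genes had no peak.

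**Figure D1:**
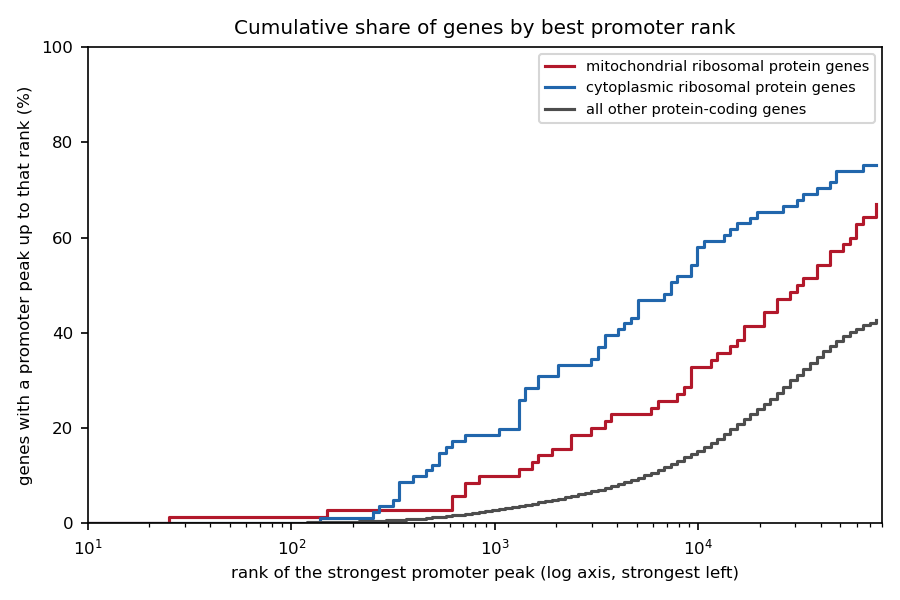
Cumulative share of genes (%, vertical axis) whose strongest promoter peak lies at or above a given rank in the full ranked list (horizontal log axis, strongest left). The line of the mitochondrial ribosomal protein genes ends at 67.1% and that of all other protein-coding genes at 42.7%, with the cytoplasmic ribosomal protein genes above both over most of the range and ending at 75.3%.

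Signal strength was spread over more than 2 powers of 10 among the members. The deposited signal, which is the authors' own value for each peak and has no stated unit, ran from 2.69 at mrps-21 to 1113 at mrps-28, with a median of 56.2 (quartiles 35.9 and 90.3). Other genes with a ranked promoter peak had a median of 49.7 (quartiles 34.9 and 69.3). The large subunit had a median signal of 52.8 (n = 30) and the small subunit 60.6 (n = 17). In whole embryos, binding in fewer cells and weaker binding per cell cannot be told apart.

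**Figure D2:**
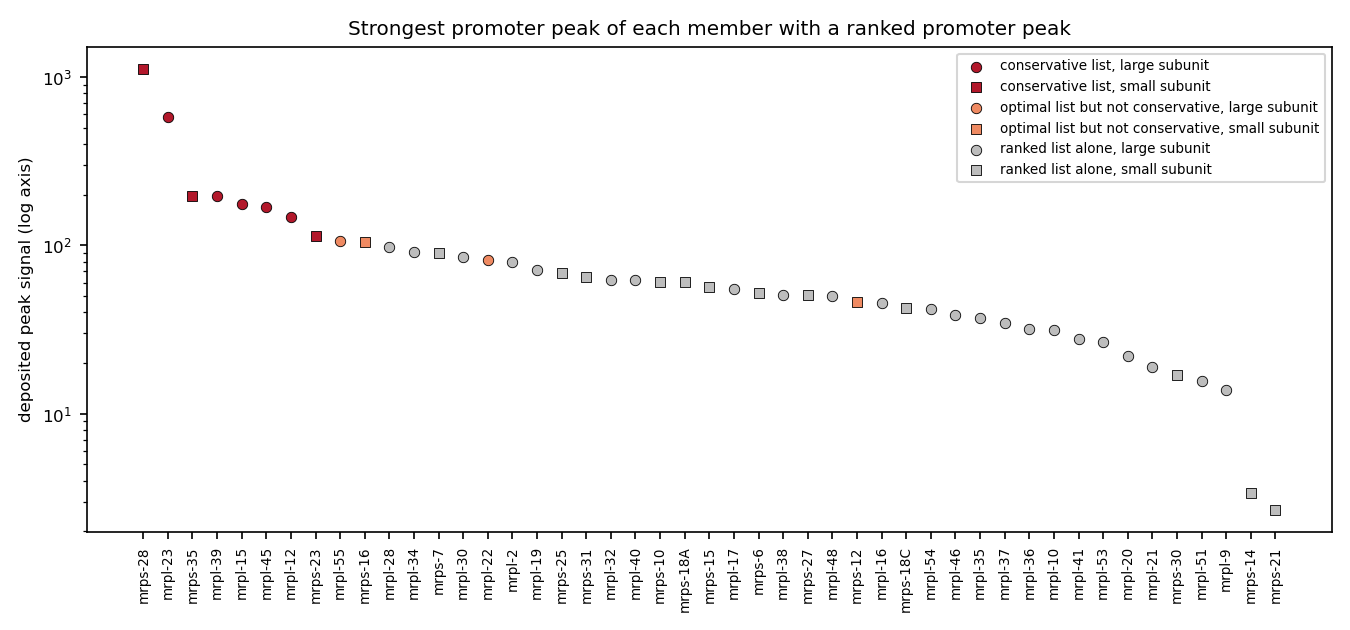
Deposited signal (log axis) of the strongest promoter peak of each of the 47 members that had one, in descending order; circles are large subunit and squares small subunit genes, and colour gives the list that holds the peak. The points for mrps-28 (1113) and mrpl-23 (579) stand apart from the others, which start at 197 and decline to 2.69.

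Of the large subunit genes, mrpl-23 had the strongest promoter peak. Its product lines the exit of the peptide tunnel in human mitochondrial ribosomes. The peak (chrI:6212699-6212990) had a signal of 579, with 282 in replicate 1 and 289 in replicate 2, and the replicates were nearly level. Its summit lay 977 bp upstream of mrpl-23, within an intron of fars-1, which encodes a phenylalanyl-tRNA synthetase. That summit was also inside a tRNA pseudogene, T08B2.t1, and a non-coding RNA gene, T08B2.14. It was 38 bp upstream of the snoRNA gene T08B2.13. snoRNAs guide chemical changes on other RNAs, mainly ribosomal RNA.

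The promoter of mrpl-39 had a peak with a signal of 197 at chrV:1821295-1821624, in the sequence between mrpl-39 and gly-7. The protein has no bacterial counterpart, and gly-7 encodes an enzyme that starts mucin-type sugar chains. The signal was 91.5 in replicate 1 and 109.9 in replicate 2. The summit lay 119 bp upstream of mrpl-39 and 137 bp upstream of gly-7 on the other strand, so the peak lay in both promoter windows. The peak at mrpl-15 (chrI:1435604-1435688) had a signal of 175, with 78.0 in replicate 1 and 100.3 in replicate 2. It lay between genes, 639 bp upstream of mrpl-15, and in no other gene's promoter window.

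The peaks of mrpl-45 and mrpl-12 differed more between the replicates. In human mitochondria MRPL45 sits beside the tunnel exit, where the ribosome meets the inner membrane, and MRPL12 belongs to the stalk that receives translation factors. The mrpl-45 peak (chrIII:1202351-1202448) had a signal of 168, with 43.7 in replicate 1 and 110.2 in replicate 2. It lay 357 bp upstream of mrpl-45 and nearer to Y119D3B.12, at 181 bp. The mrpl-12 peak (chrIII:10707080-10707409) had a signal of 148, with 39.4 in replicate 1 and 101 in replicate 2. It lay 516 bp upstream of mrpl-12, and 223 and 217 bp upstream of Y39A1A.21 and Y39A1A.22. Both peaks were in replicate 2's own thresholded list and not in replicate 1's, and the same held for the mrpl-15 peak.

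Of the small subunit genes, mrps-28 had the strongest promoter peak of all 70, at place 12 of the conservative list. The peak (chrV:19643005-19643404) had a signal of 1113, with 529.6 in replicate 1 and 589 in replicate 2, so it was strong in both. Its summit lay 998 bp upstream of mrps-28, at the edge of the window, and replicate 2's own summit, at 1008 bp, fell outside it. The summit was in an intron of the divergent neighbour Y43F8C.7, whose 5′ end was nearer at 789 bp, and 54 bp upstream of the snoRNA gene Y43F8C.22. The capitals at the left of its printed window stand between the summit and that snoRNA gene. As background, GGTTCGA is the core of the B box, an element inside genes transcribed by RNA polymerase III. This word was searched after the windows were seen, and it was in 181 of the 1440 distinct conservative summit windows (12.6%).

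The gene mrps-35 had 4 conservative promoter peaks, more than any other member. Its strongest (chrV:18981103-18981261, signal 197) lay 112 bp upstream of mrps-35, in the 5′ UTR of the divergent gene sws-1, whose product acts in DNA repair by recombination. That peak had a signal of 113 in replicate 1 and 96.1 in replicate 2, and it was the only one of the 8 members' strongest peaks that was lower in replicate 2. Of the other peaks, 1 was in an intron of sws-1 (chrV:18980169-18980399, signal 154), with 63.3 in replicate 1 and 83.3 in replicate 2. The remaining peaks lay in an intron of mrps-35, upstream of other transcript starts of that gene. They had signals of 141 (chrV:18983416-18983745, with 58.2 in replicate 1 and 78.6 in replicate 2) and 112 (chrV:18983051-18983136, with 50.7 in replicate 1 and 60.9 in replicate 2).

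These 3 weaker peaks lay on a tandem repeat, shown here by the 101 bases around the summit at chrV:18980262-18980362 (plus strand, no capitals).
mrps-35 repeat: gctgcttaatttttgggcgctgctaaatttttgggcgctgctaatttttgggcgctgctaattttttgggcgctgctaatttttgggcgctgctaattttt
All bases of the 3 windows were soft-masked as repeats. Of 20 words of 25 bases taken across each window, 20, 16 and 20 had another exact copy in the genome, against 0 of 20 in the window of the strongest mrps-35 peak and in those of the other 7 members. Not given in the sources used here is whether reads that match several places were kept, and the effect of the repeat on these signals was not tested. The strongest mrps-35 peak is outside the repeat, and the count stayed at 8 without the 91 of 1440 summits whose window was fully soft-masked. Its nearest 5′ end, however, is that of sws-1, so where a summit goes only to the nearest gene mrps-35 counts through the repeat peaks alone. Without fully soft-masked windows that count was 4 (5.71%, 2.24 to 13.8%), against 2.89% of others (2.67 to 3.13%).

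By its best peak the weakest of the 8 members was mrps-23, which encodes a small subunit protein that is particular to mitochondria. The peak (chrIII:9523635-9523964) had a signal of 114, with 46.0 in replicate 1 and 67.6 in replicate 2. It lay 128 bp upstream of mrps-23, in an intron of prp-40, a gene for a splicing factor of the U1 particle, and 154 bp upstream of a prp-40 transcript start. It was in neither replicate's own thresholded list.

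The members next to the threshold differed little. The conservative list requires a −log10 global IDR of at least 2, and just inside it were mrpl-12 at 2.13, mrps-23 at 2.33 and mrpl-45 at 2.46. Just outside were mrpl-55 at 1.91, mrpl-22 at 1.88 and mrps-16 at 1.67. The members that the optimal list added were these 3 genes and mrps-12, which at 0.447 was far from the threshold. That list did not hold mrps-23, nor mrpl-28 at 1.57, mrps-7 at 1.26 or mrpl-34 at 1.01. MRPS12 lies at the decoding centre of the human small subunit, and MRPL22 lines the peptide tunnel of the large one.

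The mrpl-55 peak (chrIV:443667-443996) had a signal of 106, 153 bp upstream, with 39.2 in replicate 1 and 61.0 in replicate 2. The mrps-16 peak (chrII:5473983-5474312) had a signal of 105, 225 bp upstream, with 35.9 in replicate 1 and 62.8 in replicate 2. Both lay between genes, outside other promoter windows, and were higher in replicate 2. The mrpl-22 peak (chrIII:10614506-10614835) had a signal of 81.3, with 42.3 in replicate 1 and 52.3 in replicate 2. It lay 795 bp upstream, in the 3′ UTR of rabx-5 and in an exon of Y39A1A.24, the next gene upstream on the same strand. The mrps-12 peak (chrV:20837878-20838207) had a signal of 45.7, 37 bp upstream, with 22.6 in replicate 1 and 29.7 in replicate 2, and was shared with exos-7, a subunit of the RNA exosome. It was the weakest of the members' peaks in the optimal list, at rank 19581 of the ranked list.

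The promoter of mrpl-18 was in replicate 1's own list alone. That peak (chrIII:8144660-8144919) had a signal of 96.8 in replicate 1, lay 225 bp upstream of mrpl-18 and 161 bp upstream of C14B9.8, and had no counterpart within 200 bp in replicate 2. In the ranked list that compares the replicates, mrpl-18 had no promoter peak.

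The next 10 members by signal ran from 98.1 to 61.8. They were mrpl-28, mrpl-34, mrps-7, mrpl-30, mrpl-2, mrpl-19, mrps-25, mrps-31, mrpl-32 and mrpl-40. At mrpl-28, the strongest of them, the summit lay 96 bp upstream, with a signal of 49.6 in replicate 1 and 42.8 in replicate 2. At mrpl-2, whose product lies near the peptidyl transferase centre, the signal was 79.2, with 38.1 in replicate 1 and 34.8 in replicate 2. These signals differed little between the replicates. Their ranks in the own ranked lists of replicates 1 and 2 differed more, at 1760 and 6495 for mrpl-28 and 4524 and 12283 for mrpl-2. By contrast mrpl-30 (signal 84.6) had 24.5 in replicate 1 and 54.7 in replicate 2, and mrps-31 (signal 64.8) had 20.8 in replicate 1 and 45.4 in replicate 2.

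Several of these peaks were in the promoter window of another gene too. The mrpl-34 peak (signal 90.7, with 32.3 in replicate 1 and 40.2 in replicate 2) was 152 bp upstream and shared with lid-1, which encodes a lipid droplet protein. The mrps-7 peak (signal 89.8, with 40.7 in replicate 1 and 39.7 in replicate 2) was 189 bp upstream and shared with Y57G11C.3. By signal the replicates were closer at mrps-7 than at mrpl-34. By rank in each replicate's own ranked list they were closer at mrpl-34 (8656 and 7955) than at mrps-7 (3513 and 8286). The mrps-25 peak (signal 68.5, with 29.6 in replicate 1 and 35.2 in replicate 2) was 413 bp upstream and nearer to Y55F3AM.13, at 166 bp. The mrpl-40 peak (signal 61.8, with 33.4 in replicate 1 and 27.0 in replicate 2) was 557 bp upstream, in an exon of F54C4.4, and shared with attf-3, a gene for a DNA-binding protein. Unshared peaks close to the 5′ end included that of mrps-31, 20 bp upstream, and that of mrpl-28 described above. Others were those of mrpl-19 (signal 70.8, 89 bp upstream, 34.3 in replicate 1 and 32.3 in replicate 2) and mrpl-32 (signal 62.2, 50 bp upstream, 33.8 in replicate 1 and 22.6 in replicate 2). The products of mrpl-19 and mrpl-32 have bacterial counterparts in the large subunit.

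The remaining members with a ranked promoter peak had signals from 60.9 at mrps-10 down to 2.69 at mrps-21, and their replicates often differed. Replicate 1 gave 11.8 at mrps-10, where replicate 2 gave 36.1. At mrps-15 replicate 1 gave 32.7 and replicate 2 gave 11.2, so neither replicate was the higher throughout. The peaks of mrpl-21, mrpl-41, mrpl-51, mrps-14 and mrps-21 had no summit within 200 bp in replicate 1, and that of mrps-18C had none in replicate 2. The weakest 2, mrps-14 (3.36) and mrps-21 (2.69), ranked 73579 and 74236 of the 74874 peaks.

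No ranked promoter peak was listed for 23 members. In the large subunit these were mrpl-1, mrpl-4, mrpl-11, mrpl-13, mrpl-18, mrpl-24, mrpl-42, mrpl-44, mrpl-47, mrpl-49 and mrpl-50. In the small subunit they were mrps-2, mrps-5, mrps-9, mrps-11, mrps-17, mrps-18.C, mrps-18B, mrps-22, mrps-24, mrps-26, mrps-33 and mrps-34. The list holds peaks matched between the replicates, so this does not show that the promoters were unbound. dap-3, which encodes a small subunit protein and was left out by the symbol rule, also had none.

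Replicate 2 was more often the higher. Of the 47 best promoter peaks, 42 had a summit within 200 bp in replicate 1's own ranked list, 46 in replicate 2's and 41 in both. Over those 41 the median log2 ratio of replicate 2 to replicate 1 was 0.30 (SD 0.78 across peaks), and replicate 2 was higher in 25. No scaling between the replicates is stated, so the ratio is a description of the deposited values. The ratio was not taken for other genes. Over all peaks of the own ranked lists the median signal was 17.5 in replicate 1 and 19.6 in replicate 2. The higher values in replicate 2 therefore do not set the members apart. Of the 8 conservative members, 4 had their strongest peak in both replicates' own thresholded lists (mrps-28, mrpl-23, mrps-35 and mrpl-39), 4 in replicate 1's list and 7 in replicate 2's.

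**Figure D3:**
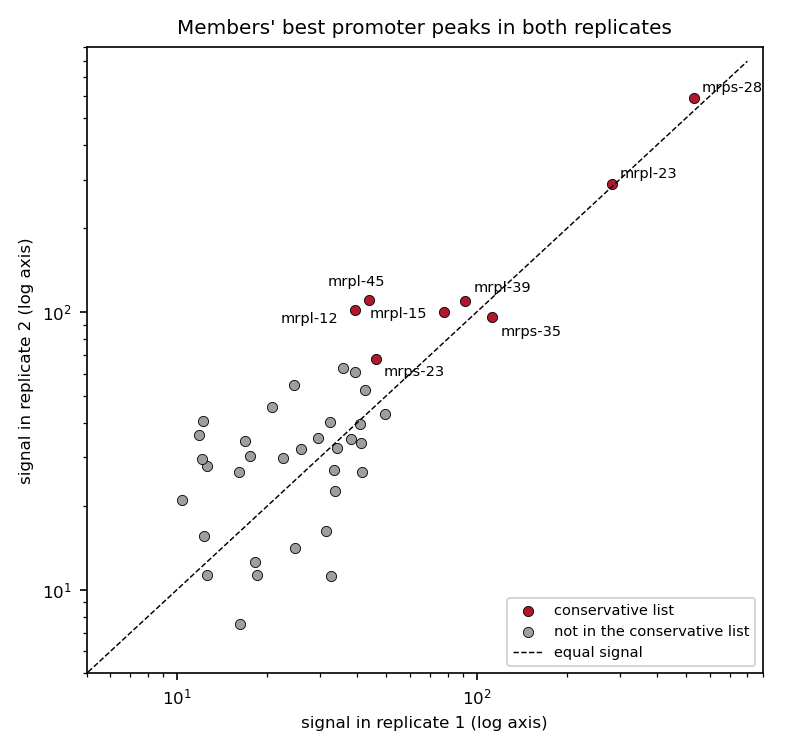
Deposited signal of the members' best promoter peaks in replicate 1 (horizontal log axis) and replicate 2 (vertical log axis), for the 41 peaks found in both; red points are in the conservative list and the dashed line marks equal signal. mrps-28 and mrpl-23 lie near the line, while mrpl-45 (43.7 in replicate 1, 110.2 in replicate 2) and mrpl-12 (39.4 and 101) lie above it.

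The summits stood mostly upstream of the 5′ ends, in a window that reaches 1000 bp upstream and only 200 bp downstream. A majority upstream therefore follows in part from the window. Of 47 members, 41 had their best summit upstream (87.2%) and 6 downstream, against 86.95% upstream among other genes. The median position was 316 bp upstream for the members, over a range of 998 bp upstream to 193 bp downstream, and 346 bp upstream for other genes. For the 8 conservative members it was 436.5 bp upstream. Of the 47 best summits, 21 lay between genes and 26 inside a gene, a split that was not counted for other genes.

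**Figure D4:**
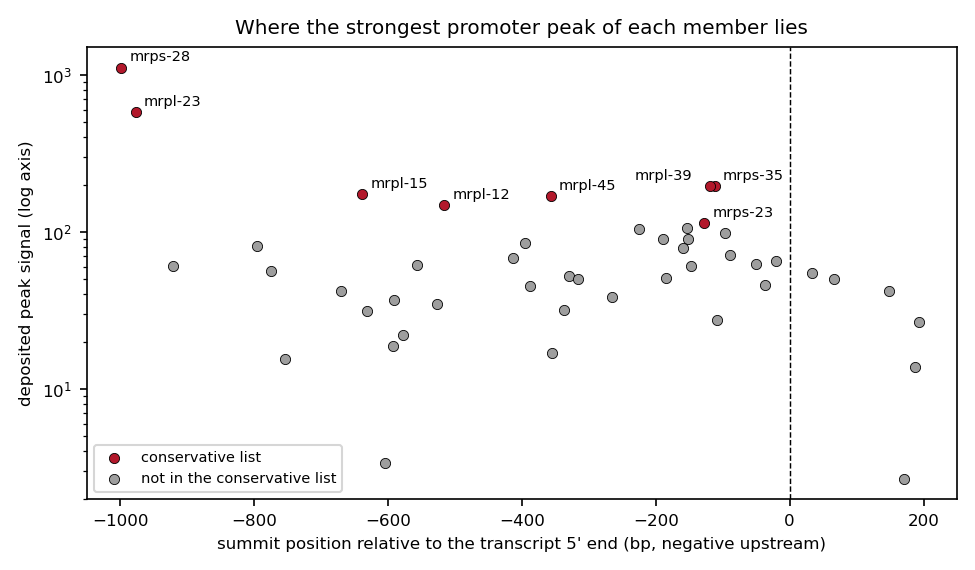
Position of the strongest promoter summit relative to the member's transcript 5′ end (bp, negative upstream, horizontal axis) against its deposited signal (log axis), for 47 members; red points are in the conservative list. The strongest peaks, mrps-28 and mrpl-23, lie near the upstream edge at 998 and 977 bp, whereas mrps-35, mrpl-39 and mrps-23 lie within 128 bp of the 5′ end.

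Some members shared their peak with a neighbour. Of the 47 best peaks, 20 were in another gene's promoter window as well, and the member's own 5′ end was the nearest for 31. The same counts were not made for other genes, so they do not set the members apart. The members are short genes with close neighbours: the median distance to the next gene upstream was 310.5 bp, against 943 bp for other genes, and the median gene length was 1125.5 bp, against 2030 bp.

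A divergent neighbour within 1000 bp, transcribed away from the member, was present for 27 members (38.6%) and for 4221 other genes (21.2%). In that class 6 of 27 members (22.2%) had a conservative promoter peak, against 350 of the 4221 others (8.29%). Among genes with a neighbour on the same strand within 1000 bp, the counts were 1 of 34 members (2.94%) and 173 of 6086 others (2.84%). Among genes with more than 1000 bp to the next gene, they were 1 of 9 members (11.1%) and 285 of 9596 others (2.97%). The same-strand class holds 48.6% of the members, and its conservative shares were alike, resting on 1 member. The median distance to the neighbour in that class was 108 bp for members and 307 bp for others, so these promoter windows reach into the neighbouring gene. Whether the annotated 5′ ends there are starts of transcription was not tested. Among the 5000 strongest ranked peaks that class had 14.7% of members, against 7.77% of others, and in the whole ranked list 58.8%, against 40.4%. The part that the closeness of neighbours plays in the total was not tested.

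The forkhead core GTAAACA was in a similar share of the members' promoters and of others. On both strands of the 300 bases from 250 before to 50 after the 5′ end, it was in 4 of 70 members (5.71%), mrpl-4, mrpl-12, mrpl-35 and mrpl-55, against 949 other genes (4.77%). Within 50 bp of the best ranked summit it was in 0 of 47 members, which allows a share of up to 7.56% (upper 95% Wilson bound), against 71 of 8491 other genes (0.836%). No match says only that these letters are not in these windows.

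The other words were also searched on both strands. In the same promoters, GAGAGA was in 15 members (21.4%), against 21.8% of other genes. The arbitrary word GTGTTG was in 9 members (12.9%), against 12.7%. CTCGGCC was in 1 member, mrpl-2 (1.43%), against 1.47%. The palindrome TTGCGCAA was in 1 member, mrpl-51 (1.43%), against 0.512%. CTTGCGC, which overlaps the palindrome in its last letters, was in 0 members, which allows up to 5.20% (upper 95% Wilson bound), against 1.24%.

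Around the best ranked summits, GAGAGA was in 1 of 47 members (2.13%, 0.377 to 11.1%), against 7.73% of other genes. There GTGTTG was in 5 members (10.6%, 4.63 to 22.6%), against 3.99%, so the member interval lay just above that share. The palindrome and CTTGCGC were each in 1 summit window (2.13%, 0.377 to 11.1%), and both counts rest on that of mrpl-12 printed above. Among other genes the palindrome was in 0.365% and CTTGCGC in 1.40%. CTCGGCC was in 0 of 47, against 1.64%.

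Base composition varied across the conservative members' summit windows. GC content was 64.4% at mrps-28, 60.4% at mrps-23, 57.4% at mrpl-23 and 52.5% at mrpl-12. It was lower at mrpl-39 (51.5%), mrpl-15 (50.5%), mrpl-45 (47.5%) and mrps-35 (45.5%). Over the best ranked windows the median was 37.6% for the members and 39.6% for other genes.

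The members' share of 11.4% stood among the shares of other mitochondrial and ribosomal gene groups. Of 81 cytoplasmic ribosomal protein genes, 19 (23.5%, 15.6 to 33.8%) had a conservative promoter peak, with signals of 608 at rpl-3, 409 at rpl-15, 374 at rps-24 and 336 at rps-20 for the strongest. Their share was above that of the members, with overlapping intervals. The median rank of a best peak was 11425 for the members and 3300 for the cytoplasmic ribosomal protein genes.

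Among nuclear genes for mitochondrial translation and gene expression, 5 of 19 (26.3%, 11.8 to 48.8%) had a conservative promoter peak. Of these, ears-2, the mitochondrial glutamyl-tRNA synthetase gene, had a signal of 938 with its summit 28 bp upstream. It was followed by mtss-1 (390.3), for a mitochondrial single-stranded DNA binding protein, gfm-1 (172), for an elongation factor, and yars-2 (158), for the mitochondrial tyrosyl-tRNA synthetase. Of 72 genes for the respiratory chain and ATP synthase, 12 (16.7%, 9.80 to 26.9%) had one, led by ndua-2 (441), cox-6A (349), cox-5B (286) and nduc-2 (222).

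Among 14 genes for mitochondrial protein import, 1 (7.14%, 1.27 to 31.5%) had one, tomm-20 (154), an import receptor of the outer membrane. Among 8 genes for mitochondrial chaperones and proteases, 3 (37.5%, 13.7 to 69.4%) did. These were hsp-60 (315), hsp-6 (162) and clpp-1 (138), of which hsp-60 and hsp-6 encode the matrix chaperonin and the matrix chaperone of the HSP70 family. The intervals of all these groups overlapped that of the members, and none of the differences was tested.

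**Figure D5:**
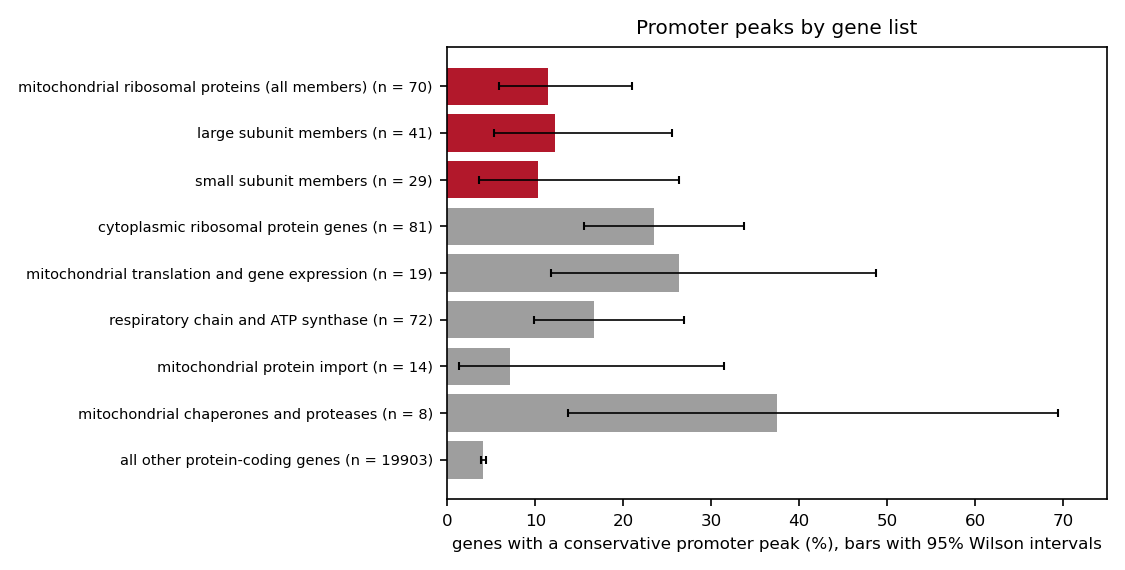
Share of genes with a conservative promoter peak (%, horizontal axis from 0) in the mitochondrial ribosomal protein genes and each subunit (red) and in other gene groups (grey); lines are 95% Wilson intervals. The members stand at 11.4%, cytoplasmic ribosomal protein genes at 23.5% and all other protein-coding genes at 4.06%.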

How the data were processed

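Peak lists from ChIP-seq of 2 biological replicates were used. The deposited file lists name ce11 as the assembly, 1 control shared by both replicates, and IDR as the measure of reproducibility. Not given in the sources used here are the aligner, the peak caller, mapping filters and read depth, so the depth is unknown. The deposited score is the IDR rescaled to whole numbers, with 830 standing for 0.01 and as the lowest in the thresholded lists. The deposited signal is the authors' value per peak, used only to describe and rank peaks within a list, and the signal in a replicate is that of the nearest summit within 200 bp in its own ranked list. For ranked peaks the deposited global IDR is on a −log10 scale. The summit is the authors' offset from the peak start.

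Mitochondrial peaks, of which the conservative list held none, were set aside. Thresholded summits within 200 bp of a stronger one were merged, which left 1440 of 1452 conservative peaks. Promoters came from Ensembl release 115 and small RNA genes also from WormBase release 298. The RefSeq sequence matched the annotation, with ATG at 31769 of 31805 start codons (99.89%). Windows on chromosome I or over a UTR are not printed. Shares have 95% Wilson intervals. Named are all members with a peak in a thresholded list, the next 10 by signal, those with no ranked promoter peak, genes that share a member's peak, and up to 4 genes per other group. Of 22 symbols for mitochondrial translation and gene expression, 3 (gfm-2, mars-2, wars-2) were not in the annotation. Members and lists were chosen with earlier results of these data known. No p-values were computed, because 1 group has no sample comparison. Alternatives were other lists, a stricter IDR, other windows and other assignment of peaks. Python 3.11.15, pandas 2.3.3, numpy 2.4.6, scipy 1.17.1 and matplotlib 3.10.9 were used, and the counting was tested on simulated data.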

Additional observations from a re-analysis of the deposited data

How the results depend on the processing

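The 8 members with a conservative promoter peak became 5 at an IDR of 0.001 (391 others, 1.96%), 5 with the nearest gene only (2.95% of others) and 4 with 500 bp upstream to 100 bp downstream (2.97%). Without summits within 200 bp of tRNA and snoRNA genes they were 6 (8.57%, against 3.65%). Chosen after seeing the data, that setting with the nearest gene only gave 4 (2.6% of others), leaving out fully soft-masked windows with the nearest gene only gave 4 (2.89%), and all of these together gave 3 (4.29%, 1.47 to 11.9%, against 2.54%). Intervals of members and others overlapped in all the nearest-gene counts, with the 500 bp window and in replicate 1's list. Each replicate's own list gave 5 to 6; mrpl-18 was in replicate 1's alone. The optimal list, the wider window, gene 5′ ends, no merging and leaving out soft-masked windows alone gave 8 to 11. Over the 14 alternatives that keep all 70 members, their share was 1.69 to 3.64 times that of others, and 2.82 in the count reported. Restricting to genes with no same-strand neighbour within 1000 bp upstream left 34 members, 7 with a peak (20.6%), against 4.59% of 13643 others. mrpl-39 was counted under every alternative, and mrps-35 in nearest-gene counts only through its repeat peaks.

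The median rank moved to 4843.5 with a window of 2000 bp upstream to 500 bp downstream (10619 for others) and was 8343 to 15748.5 under the other 4 alternatives. Promoters of 500 bases before to 100 after the 5′ end held GAGAGA in 26 members (37.1%, against 33.9% of other genes). They held GTGTTG in 16 (22.9%, against 23.1%) and CTTGCGC in 1 (1.43%, against 2.38%). CTCGGCC was in 4 (5.71%, 2.24 to 13.8%, against 2.96%). Longer windows hold more words. The forkhead core was still in 4, against 8.67% of other genes. No paired analysis was possible because there is 1 group. Read depth is unknown, so a weak promoter peak cannot be told from none.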

Other observations

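The members were unevenly spread over chromosomes. Chromosome III held 22 of the 70 (31.4%), against 13.2% of other genes, and chromosome X held 0, against 2731 other genes (13.7%). Conservative promoter peaks were at 3 of the 22 members on chromosome III (6.30% of others there), 3 of the 10 on V (2.33% of others) and 2 of the 15 on I (6.08% of others). They were at 0 of 12 on II (4.57% of others) and 0 of 11 on IV (3.94% of others), numbers too small to set these chromosomes apart.

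A few summit windows shared short words. The windows of mrpl-45 (chrIII:1202315-1202415, minus strand) and mrps-16 (chrII:5474098-5474198, plus strand) are shown because both hold the 15 bases GTCCGCAAACACCGA, which were found by comparing these windows.
mrpl-45: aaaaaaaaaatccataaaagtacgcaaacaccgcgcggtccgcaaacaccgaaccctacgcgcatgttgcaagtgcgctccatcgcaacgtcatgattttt
mrps-16: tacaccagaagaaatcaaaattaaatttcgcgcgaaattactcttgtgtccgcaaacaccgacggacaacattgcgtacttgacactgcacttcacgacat
That word had 35 copies in the nuclear genome and was in 1 of 1440 conservative summit windows, that of mrpl-45. Of the bases in that window, 86.1% were soft-masked as repeats, against 49.5% at mrps-16. The windows of mrpl-39 and mrps-23 shared the 11 bases CGACTCCGCCC, with 91 copies in the genome and 4 conservative windows.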
